A study of Homo sapiens with 24 samples.

Results

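The Krüppel-like factors (KLF) described here are KLF2, KLF3, KLF4, KLF5, KLF6, KLF7, KLF9, KLF10, KLF11 and KLF13. The members were fixed by gene symbol, and all 10 were found among the 60232 Ensembl gene identifiers of the count table. Each also passed the filter on low counts and was among the 18379 genes tested. RNA sequencing was done on 22Rv1 cells, a long-established line from a human prostate carcinoma, and this single line is the model in every group. The control group received the vehicle DMSO. The treated groups received KB02 or KB05, small molecules known here by code name, at a dose of 200 µM for 1 h, with a recovery of 2 h after removal of the compound. All groups are labelled with a time of 3 h, while the columns of the count table are named with 2 h. Each group held 3 libraries, which the submitters call biological triplicates.

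KLF proteins bind GC-rich and CACCC-containing DNA through a carboxy-terminal block of zinc fingers that is nearly the same in all family members. Their amino-terminal parts differ and set whether a member activates or represses. KLF2, KLF4, KLF5, KLF6 and KLF7 act mainly as activators, KLF3 represses by recruiting CtBP, and KLF9, KLF10, KLF11 and KLF13 recruit the Sin3A corepressor. Several family members are induced within an hour or so of growth factor, stress or hormone signals, and KLF4, KLF5 and KLF6 have been studied as regulators of growth in prostate epithelium.

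Total counts per library ran from 15506975 to 21900548. Counts for a member in a library ran from 55 for KLF13 to 1933 for KLF6, and all levels below are CPM, counts per 1000000 after TMM scaling. Prostate luminal genes were present in every library, with a summed level of 2406 to 3097 CPM over 9 markers including KLK3 and HOXB13. Most of this sum came from the keratin genes KRT8 and KRT18, at means of 1061 and 719 CPM with DMSO. Summed levels were 2519 to 2907 CPM with DMSO, 2406 to 2556 CPM with KB02 and 3048 to 3097 CPM with KB05. Of these 9 markers, 2 were higher and 5 lower with KB02, where 22.8% of all genes tested were higher and 23.3% lower. With KB05, 5 were higher and 1 lower, where 18.7% of all genes tested were higher and 21.1% lower. The count of higher markers with KB02 is near the background. KLK3, for prostate-specific antigen, was at 51.4 CPM with DMSO, 35.7 CPM with KB02 and 65.5 CPM with KB05, and TMPRSS2, a luminal protease gene, at 59.6, 23.5 and 34 CPM. Of 14 markers of immune, endothelial, fibroblast, basal and neuroendocrine cells, 8 stayed under 1 CPM in every library and CDH5, which marks endothelium, was at 0. Their summed level was 263 to 307 CPM in DMSO, 154 to 174 CPM in KB02 and 231 to 255 CPM in KB05, most of it from the synaptic vesicle gene SYP. PTPRC, an immune marker, was at 14.2 CPM with DMSO, 9.67 with KB02 and 11.8 with KB05. COL1A1, a fibroblast marker, was at 14.5, 22.7 and 19.7 CPM. Of the 7 tested, 1 was higher and 3 lower with KB02, and 1 higher and 1 lower with KB05, beside the shares given above. The higher marker was COL1A1 with either compound. The part of these differences in the results below was not tested. In bulk RNA, fewer cells with a transcript and less transcript per cell cannot be told apart.

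KLF2 and KLF10 rose more than 3-fold with either compound. KLF4 and KLF6 rose more than 2-fold with KB05 and did not pass the test with KB02. KLF5 rose modestly with both, KLF3 and KLF11 rose with KB05, and KLF7, KLF9 and KLF13 passed the test in no comparison. With KB02, 3 of the 10 members were higher than with DMSO and 0 were lower, where 22.8% of all genes tested were higher and 23.3% lower. With KB05, 7 of the 10 were higher and 0 were lower, where 18.7% of all genes tested were higher and 21.1% lower. The count of lower members was also 0 in each comparison at an unadjusted edgeR p under 0.05 and with DESeq2. Rises of at least 2-fold numbered 2 with KB02 and 4 with KB05, against 6.04% and 4.97% of all genes tested. The median log2 fold change of the members was -0.07 with KB02 and 0.74 with KB05, beside medians of 0.00 and 0.00 over all genes tested. Both comparisons use the same 3 DMSO libraries. The summed level of the 10 members was 151 to 164 CPM in the DMSO libraries, 188 to 205 CPM with KB02 and 315 to 348 CPM with KB05, with no overlap between groups.

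**Figure D1:**
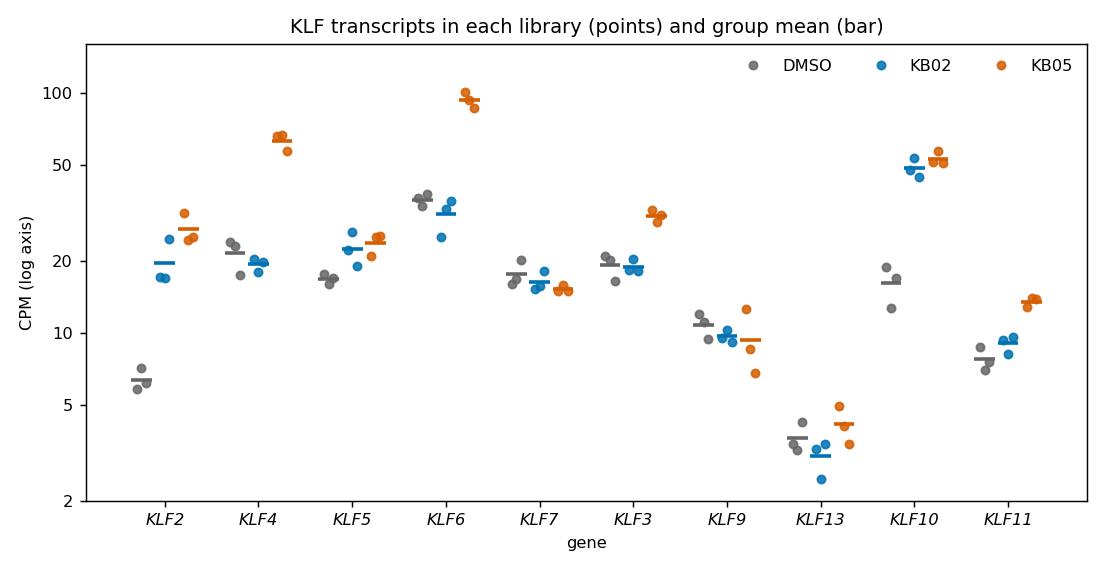
Level of each KLF transcript in CPM (log axis) in every library (points) with the group mean (bar), for DMSO, KB02 and KB05. KLF4 and KLF6 stand apart in the KB05 libraries alone, at 57.1 CPM or more and 86.2 CPM or more, and KLF10 stands at 44.5 CPM or more in the libraries of both compounds.

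The promoters of 4 members that rose are shown first with that of KLF7, which passed no test, to set the DNA before each start beside the transcript values that follow. RefSeq starts were listed for 8 of the 10 members, 13 starts in all, and not for KLF3 or KLF10. Each sequence below begins 250 bases before a RefSeq start (GRCh38.p14), is written 5′ to 3′ on the strand of the gene, and ends at the start or where an annotated GENCODE exon begins. The KLF2 sequence is chr19:16324576-16324816, plus strand, with capitals for 4 GC boxes (GGGCGG, either strand) and for a MEF2 site. The KLF4 sequence is chr9:107489770-107490019, minus strand, with capitals for 4 GC boxes and 2 short CRE sites (TGACG, either strand). It lies within the annotated span of KLF4. The KLF6 sequence is chr10:3785282-3785459, minus strand, with capitals for 1 GC box. The KLF11 sequence lies before the second of its 2 listed starts, at chr2:10043971-10044174, plus strand, and has capitals for a CRE (TGACGTCA). It lies within the annotated span of KLF11, downstream of the first listed start. The KLF7 sequence lies before the most upstream of its 4 listed starts, at chr2:207167268-207167496, minus strand, and has capitals for a heat shock element (GAANNTTC) and, nearer the start, a CArG box. Among the listed starts of KLF7 and KLF11, only the printed ones held these elements or the CRE. Shares given below are per single start, while KLF7 has 4. Which starts are used in these cells was not determined.
KLF2: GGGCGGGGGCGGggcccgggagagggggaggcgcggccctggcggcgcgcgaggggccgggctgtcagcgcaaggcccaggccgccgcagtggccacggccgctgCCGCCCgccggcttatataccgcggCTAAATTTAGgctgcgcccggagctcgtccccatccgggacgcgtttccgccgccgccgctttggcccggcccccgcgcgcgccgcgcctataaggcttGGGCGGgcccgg
KLF4: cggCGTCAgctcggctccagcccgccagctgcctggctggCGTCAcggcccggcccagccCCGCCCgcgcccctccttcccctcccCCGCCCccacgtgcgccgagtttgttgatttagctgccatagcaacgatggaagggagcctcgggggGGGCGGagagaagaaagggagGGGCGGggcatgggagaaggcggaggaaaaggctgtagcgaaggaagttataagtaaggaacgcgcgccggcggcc
KLF6: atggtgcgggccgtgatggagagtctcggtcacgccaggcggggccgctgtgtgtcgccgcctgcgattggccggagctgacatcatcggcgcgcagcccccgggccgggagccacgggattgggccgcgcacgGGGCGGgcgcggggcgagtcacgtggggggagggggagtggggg
KLF11: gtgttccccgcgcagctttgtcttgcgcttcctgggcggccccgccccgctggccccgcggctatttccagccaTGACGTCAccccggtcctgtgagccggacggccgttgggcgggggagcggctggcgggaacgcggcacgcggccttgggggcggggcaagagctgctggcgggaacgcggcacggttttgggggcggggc
KLF7: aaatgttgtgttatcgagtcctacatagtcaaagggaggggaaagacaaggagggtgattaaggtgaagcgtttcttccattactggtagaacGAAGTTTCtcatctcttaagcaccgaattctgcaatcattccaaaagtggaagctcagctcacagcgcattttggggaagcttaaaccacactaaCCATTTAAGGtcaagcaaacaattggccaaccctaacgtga

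These letters were counted in the 250 bases before each of 35116 RefSeq starts, on both strands, with overlapping matches allowed. GC boxes, which KLF and SP proteins themselves can bind, were present before 42.6% of all starts and before those printed for KLF2, KLF4, KLF6 and KLF11. The printed start of KLF7 had none, but another of its listed starts had 4, and the start of KLF13, also not called, had 3. The CACCC box (CACCC), the other classical KLF site, was present before 54.7% of all starts. It was absent before those of KLF2, KLF4 and KLF6, while the printed windows of KLF7 and KLF11 each held 1. The 2 listed starts of KLF5, which rose with either compound, held 1 and 2. Those of KLF13 and KLF9, neither called, held 1 and 0. The KLF2 window held a MEF2 site, CTAAATTTAG, from 120 to 111 bases before the start, a motif looked for after the sequence had been seen and found before 0.515% of all starts. MEF2 factors, acting below the kinase ERK5, are known activators of KLF2. The CRE of KLF11, bound by CREB and ATF proteins, lay 176 to 169 bases before the start, and a CRE was found before 1.65% of all starts. The short CRE site occurred before 21.2% of starts. Besides KLF4, it was present before listed starts of KLF5, KLF11 and KLF13, the last not called. The CArG box, bound by SRF, occurred before 1.16% of all starts and, among the member starts, before that of KLF7 alone. The heat shock element, bound by HSF1, occurred before 5.78% of all starts and likewise before that of KLF7 alone. The AP-1 site (TGANTCA, 6.57% of starts) and the antioxidant response element (TGACNNNGC, 10.9% of starts) matched before none of the 13 member starts. A match in letters is a description of the sequence and was not tested for binding.

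KLF2, which keeps endothelium and T cells quiescent, had the largest rise of the 10 members with KB05. Its level was 5.82, 7.13 and 6.2 CPM in the DMSO libraries, 17.1, 16.9 and 24.7 CPM with KB02 and 31.5, 24.4 and 25.2 CPM with KB05. Every treated library lay above every DMSO library, while the highest KB02 library lay just above the lowest KB05 library. The rise was 3.05-fold with KB02 (log2 fold change 1.61 ± 0.16, SE; adjusted p = 6.13e-08, edgeR quasi-likelihood test) and 4.24-fold with KB05 (2.08 ± 0.15; adjusted p = 4e-09). KLF2 lies on chromosome 19 at 16324817 to 16327874 and, at 3.06 kb, is the shortest of the 10 genes.

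KLF4, a regulator of epithelial differentiation and one of the pluripotency reprogramming factors, separated the compounds most clearly. It stood at 24, 23.1 and 17.4 CPM with DMSO, at 20.4, 18 and 19.7 CPM with KB02 and at 65.9, 67.1 and 57.1 CPM with KB05. The KB05 libraries lay far above all others, and those of KB02 and DMSO overlapped. The change was 2.94-fold with KB05 (log2 fold change 1.56 ± 0.10; edgeR adjusted p = 1.67e-12), and with KB02 it was -0.15 on the log2 scale (95% interval -0.37 to 0.06; adjusted p = 0.253). Without DMSO replicate 3, the lowest of its group, the KB02 value became -0.28 with an adjusted p of 0.0223. KLF4 lies on chromosome 9 at 107484852 to 107490482.

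KLF6, known as an early-response gene of tissue injury and once proposed as a tumour suppressor in prostate cancer, followed the same course at a higher count. Levels were 36.4, 33.7 and 37.9 CPM with DMSO, 25.1, 33 and 35.6 CPM with KB02 and 101, 93.2 and 86.2 CPM with KB05. It rose 2.6-fold with KB05 (log2 fold change 1.38 ± 0.10; edgeR adjusted p = 7.25e-10). With KB02 its value was -0.21 (95% interval -0.42 to 0.01; adjusted p = 0.11), and without KB02 replicate 3 it was -0.31 with an adjusted p of 0.017. With no filter on low counts the adjusted p for KB02 was 0.037. KLF6 lies on chromosome 10 at 3775996 to 3785281.

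KLF5, which supports proliferation of epithelial progenitors, rose by a smaller amount with both compounds. Its levels were 17.6, 16 and 17 CPM with DMSO, 22.2, 26.3 and 19 CPM with KB02 and 20.8, 25.1 and 25.3 CPM with KB05. No treated library reached down to the DMSO range. The rise was 1.34-fold with KB02 (adjusted p = 0.00218) and 1.41-fold with KB05 (adjusted p = 0.000658, edgeR quasi-likelihood test). KLF5 lies on chromosome 13 at 73054976 to 73077542.

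KLF7, best known from the outgrowth of neurons, was the activator with no call. Levels were 16, 16.7 and 20.1 CPM with DMSO, 15.2, 15.7 and 18.1 CPM with KB02 and 15, 15.9 and 14.9 CPM with KB05. The KB05 libraries lay just below those of DMSO, with a log2 fold change of -0.20 (95% interval -0.43 to 0.03; edgeR adjusted p = 0.154). KLF7 spans 93.1 kb on chromosome 2, from 207074137 to 207167267. Of the 5 activators, 2 therefore rose with KB02 and 4 with KB05, and 0 fell, beside 22.8% and 18.7% of all genes tested that rose.

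KLF3, the CtBP-recruiting repressor of this set, rose with KB05. It stood at 21, 20.2 and 16.4 CPM with DMSO, 18.3, 20.3 and 18.2 CPM with KB02 and 32.6, 29 and 31 CPM with KB05. The groups of DMSO and KB02 overlapped, and the KB05 libraries lay above both. The change with KB05 was 1.61-fold (log2 fold change 0.68 ± 0.10; edgeR adjusted p = 1.92e-06), and with KB02 it was -0.02 (95% interval -0.23 to 0.18). KLF3 lies on chromosome 4 at 38664196 to 38701042 and shares 266 exon bases with KLF3-AS1 on the other strand. KLF3-AS1 was at 2.08 ± 0.229 CPM with DMSO, 2.13 ± 0.326 with KB02 and 4.47 ± 1.5 with KB05 (SD, n = 3), and without strand in the sources used here the reads of the shared bases cannot be told apart.

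KLF10, a TGF-beta-inducible early gene whose product represses SMAD7, rose strongly with both compounds. Its levels were 18.8, 12.7 and 17 CPM with DMSO, 47.8, 53.8 and 44.5 CPM with KB02 and 51.4, 57.1 and 51.2 CPM with KB05. All treated libraries lay above all DMSO libraries, and those of the compounds overlapped. The rise was 3.02-fold with KB02 (log2 fold change 1.60 ± 0.11; edgeR adjusted p = 1.16e-10) and 3.3-fold with KB05 (1.72 ± 0.11; adjusted p = 1.25e-10). KLF10 lies on chromosome 8 at 102648779 to 102655902.

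KLF11, the closest relative of KLF10 and a regulator of insulin gene transcription, rose with KB05. Levels were 8.73, 7.02 and 7.6 CPM with DMSO, 9.4, 8.15 and 9.64 CPM with KB02 and 12.8, 14 and 13.8 CPM with KB05. The KB05 libraries lay above all others, and those of DMSO and KB02 overlapped. The rise was 1.74-fold with KB05 (log2 fold change 0.80 ± 0.13; edgeR adjusted p = 1.11e-05), and the KB02 value was 0.22 (95% interval -0.05 to 0.49; adjusted p = 0.187). When libraries were scaled by size only, the KB02 value was 0.35 with an adjusted p of 0.0328. KLF11 lies on chromosome 2 at 10042849 to 10054836 and shares 416 exon bases with the antisense gene AC104794.4, which was at 1.2 ± 0.185 CPM with DMSO, 1.8 ± 0.834 with KB02 and 1.66 ± 0.577 with KB05. Reads of those bases also cannot be told apart.

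KLF9, a repressor induced by glucocorticoid and thyroid hormone, was called with neither compound. Its libraries were at 12, 11.1 and 9.48 CPM with DMSO, 9.57, 10.3 and 9.2 CPM with KB02 and 12.6, 8.58 and 6.84 CPM with KB05. The KB05 libraries spread across and beyond the range of DMSO. The log2 fold change was -0.16 with KB02 (95% interval -0.50 to 0.18) and -0.21 with KB05 (-0.56 to 0.14). Without KB05 replicate 1, the highest of its group, the KB05 value was -0.50 with an edgeR adjusted p of 0.0134. KLF9 lies on chromosome 9 at 70384597 to 70414624.

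KLF13, a factor that activates CCL5 in T lymphocytes, was the least abundant member, with 2.48 to 4.95 CPM over the 9 libraries. Its groups overlapped for both compounds against DMSO, with log2 fold changes of -0.25 with KB02 (95% interval -0.69 to 0.18) and 0.20 with KB05 (-0.23 to 0.63). Its counts were the lowest of the 10 members, 55 to 95 per library, and its intervals the widest among them. KLF13 lies on chromosome 15 at 31326855 to 31435665 (all positions GRCh38, GENCODE release 29). Of the 4 Sin3A-binding members, 1 rose with KB02 and 2 rose with KB05, and 0 fell, beside 22.8% and 18.7% of all genes tested that rose, so the KB02 count is near the background.

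**Figure D2:**
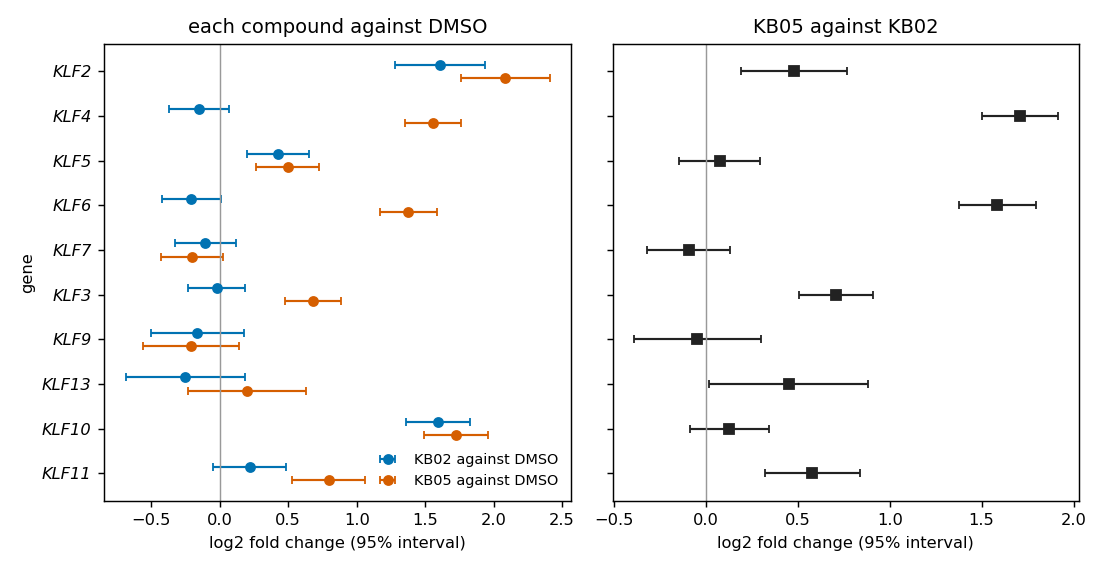
Log2 fold change with its 95% interval for each KLF gene, on the left for KB02 and KB05 against DMSO and on the right for KB05 against KB02, from the edgeR fit of 9 libraries. KLF4 and KLF6 lie at 1.71 and 1.58 on the right, and the intervals of KLF5, KLF7, KLF9 and KLF10 there include 0.

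The compounds were then compared directly, at matched dose and time, in the same fit. Of the 10 members, 5 were higher with KB05 than with KB02 and 0 were lower, where 21.8% of all genes tested were higher and 18.2% lower. KLF4 was 3.27-fold higher with KB05 (log2 difference 1.71 ± 0.10, SE; edgeR adjusted p = 2.15e-13) and KLF6 3-fold higher (1.58 ± 0.10; adjusted p = 5.41e-11). These were the 2 members past 2-fold, beside 4.11% of all genes tested. KLF3 was 1.63-fold higher (adjusted p = 7.24e-07) and KLF11 1.49-fold higher (adjusted p = 0.000433).

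KLF2 was 1.39-fold higher with KB05 than with KB02 (95% interval 1.14 to 1.7-fold; edgeR adjusted p = 0.00934), although their libraries overlapped. This call ended in a fit of the 2 groups alone (adjusted p = 0.0819), without KB02 replicate 1 (0.0754) or 2 (0.0844), and without KB05 replicate 1 (0.0575). For KLF10 the difference did not pass the test (1.09-fold, 95% interval 0.941 to 1.27-fold; adjusted p = 0.355). KLF5 likewise did not pass (1.05-fold, interval 0.903 to 1.23-fold; adjusted p = 0.629), nor did KLF7 (0.936-fold, 0.801 to 1.1-fold) or KLF9 (0.968-fold, 0.761 to 1.23-fold). KLF13 libraries did not overlap and its difference was 1.37-fold with an adjusted p of 0.0926 (interval 1.01 to 1.84-fold). Libraries did not overlap for 5 of the 10 members between KB05 and KB02, for 3 between KB02 and DMSO and for 8 between KB05 and DMSO, beside 50.3%, 53.5% and 49.2% of all genes tested.

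Per kilobase of exon, KLF4 and KLF6 were the most abundant members in DMSO, at 5.87 ± 0.977 and 5.86 ± 0.343 CPM per kb (SD, n = 3). KLF5 (4.32 ± 0.21), KLF10 (4.03 ± 0.78), KLF2 (3.16 ± 0.332) and KLF3 (3.05 ± 0.388) followed, each overlapping its neighbour in this order. KLF9, KLF7 and KLF11 lay between 1.7 and 2.1 CPM per kb and overlapped in turn, and KLF13 was lowest at 0.388 ± 0.0567. With KB02 the first places went to KLF10, at 12.2 ± 1.17 CPM per kb, and KLF2, at 9.7 ± 2.19, which overlapped each other and lay above all other members. With KB05 the first 4 were KLF4 (17.3 ± 1.49), KLF6 (15.2 ± 1.18), KLF2 (13.4 ± 1.93) and KLF10 (13.3 ± 0.839), each overlapping the next, and KLF5 came after a gap at 6.1 ± 0.65. These are levels per length over the union of annotated exons, which need not be the exons used in these cells.

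KLF10 took 10.3 ± 1.67% of the summed CPM of the members in DMSO, 24.5 ± 2.22% with KB02 and 16 ± 1.09% with KB05. KLF6 took 23.1 ± 1.41%, 15.7 ± 2.17% and 27.9 ± 0.848%, and KLF4 took 13.8 ± 2.12%, 9.8 ± 1.02% and 19 ± 0.853%. KLF10 thus had the largest share with KB02, and KLF6 had it with DMSO and with KB05.

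The 5 shortest members all rose with KB05, and of the 5 longest KLF5 and KLF3 rose. KLF2, KLF4, KLF10, KLF6 and KLF11 span 3.06, 5.63, 7.12, 9.29 and 12 kb, whereas KLF5, KLF9, KLF3, KLF7 and KLF13 span 22.6, 30, 36.8, 93.1 and 109 kb, beside a median of 27.1 kb over all protein-coding genes. Across the 10 members, the Spearman rank correlation between span and log2 fold change was -0.88 with KB05 and -0.52 with KB02, a description over genes that share the same libraries. Among tested protein-coding genes no longer than KLF11, 8.66% of 3475 rose at least 2-fold with KB05, and among longer ones 1.93% of 10921. The same shares with KB02 were 7.17% and 4%. KLF4 and KLF6, though short, were not called with KB02.

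**Figure D3:**
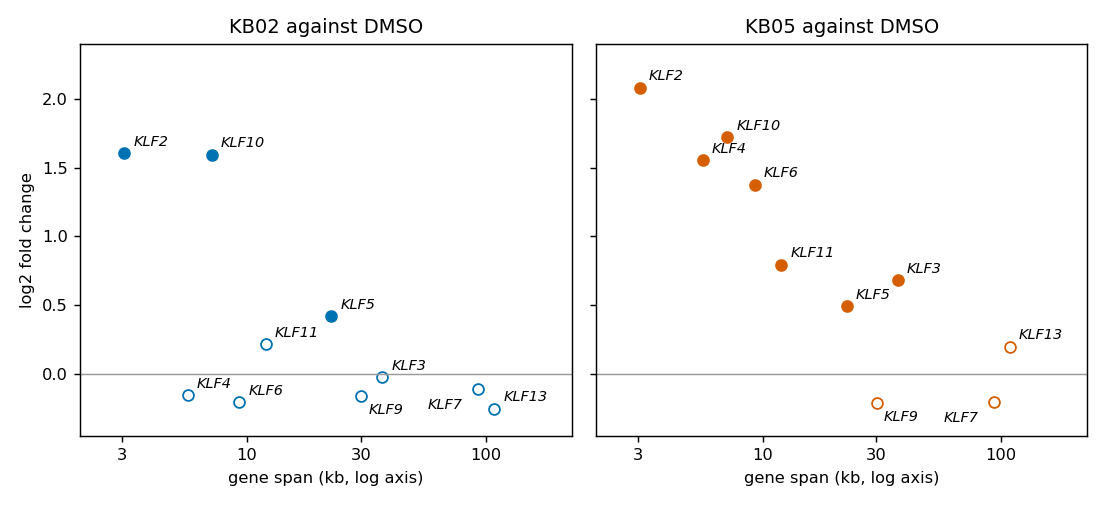
Log2 fold change of each KLF gene against DMSO plotted on its span in kb (log axis), for KB02 (left) and KB05 (right), with filled points for genes past the adjusted threshold of 0.05. With KB05 the points run from KLF2, at 3.06 kb and 2.08, down to KLF9 and KLF7, at 30 and 93.1 kb and near -0.20, with the longest gene, KLF13, at 109 kb and 0.20, while with KB02 the short genes KLF4 and KLF6 lie below 0.

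The pentamer ATTTA, a mark of unstable messages, was counted in the 3′ UTR of each member's longest coding transcript. It occurred 20 times in KLF7, 8 times each in KLF3 and KLF9, and 2 to 6 times in the other members. Its density was highest in KLF2, at 3.56 per kb, above 79.6% of genes, and lowest in KLF13, at 0.893 per kb. KLF4, KLF6 and KLF10 had 2.22, 1.69 and 2.22 per kb, close to the median of 1.82 over 14144 genes. KLF5, KLF7, KLF11, KLF9 and KLF3 had 3.02, 2.83, 2.58, 2.52 and 2.12 per kb. KLF7 and KLF9, not called, thus lay above KLF4, KLF6 and KLF10.

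Among the 17 other genes of the KLF and SP family, 11 were tested. With KB02, 4 were higher and 1 was lower than with DMSO, and with KB05, 4 were higher and 0 were lower (also 0 at an unadjusted edgeR p under 0.05 and with DESeq2). KLF15, a glucocorticoid-induced regulator of amino acid and lipid metabolism, rose with both compounds, from 12.6 CPM with DMSO to 42.8 CPM with KB02 and 45 CPM with KB05 (log2 fold changes 1.77 ± 0.10 and 1.84 ± 0.10). SP6, a factor of tooth and skin development, rose from 0.746 CPM to 2.52 CPM with KB02 and 3.16 CPM with KB05. SP8, a limb and forebrain factor, moved in opposite directions, from 3.71 CPM with DMSO to 1.93 CPM with KB02 (edgeR adjusted p = 0.000708) and 7.9 CPM with KB05 (adjusted p = 5.2e-05). The difference of SP8 between the compounds was 2.04 ± 0.21 on the log2 scale (adjusted p = 3.04e-09). SP4 was lower with KB05 than with KB02 by a log2 difference of -0.73 ± 0.13. SP1, the founding SP factor, stood at 64.1 CPM with DMSO, 69.5 with KB02 and 62.4 with KB05, none of these differences passing the test. KLF18 had no read in any library, and KLF1, KLF14, KLF17, SP7 and SP9 were also below the filter.

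**Figure D4:**
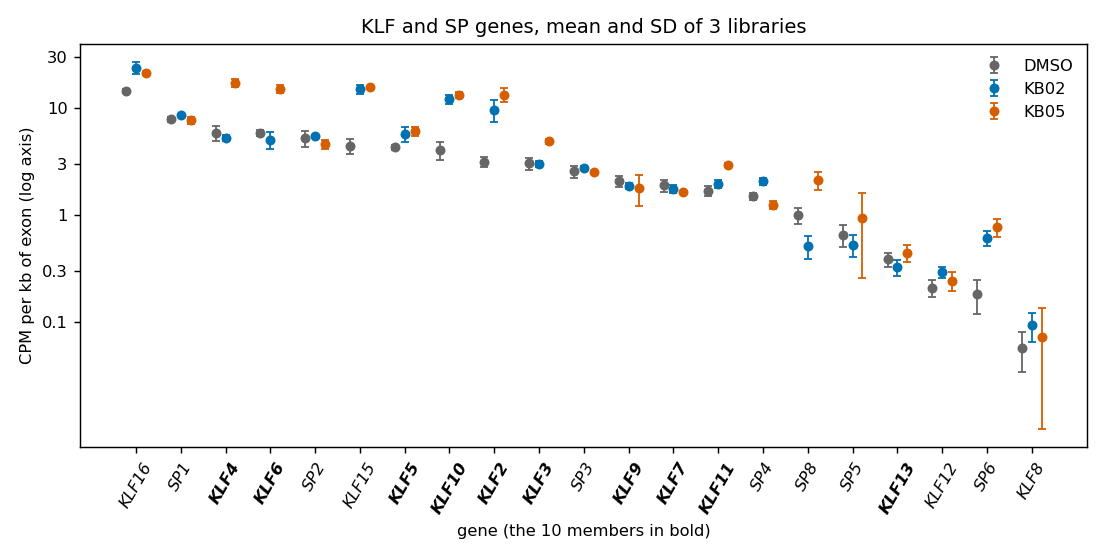
Level per kilobase of exon (log axis) of the 21 tested KLF and SP genes, mean and SD of 3 libraries for DMSO, KB02 and KB05, ordered by the DMSO mean, with the 10 members in bold. KLF16, not a member, is highest in every group, at 14.5 CPM per kb with DMSO, 23.9 with KB02 and 21.5 with KB05. KLF4 and KLF6 reach 17.3 and 15.2 CPM per kb with KB05, and KLF15 and KLF10 are high with both compounds.

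Genes whose products act with, on or above KLF proteins were taken as lists. Their counts, like those of the other KLF and SP genes, stand beside 22.8% of all genes tested higher and 23.3% lower with KB02, and 18.7% higher and 21.1% lower with KB05. Of 11 cofactors, 4 were higher and 3 lower with KB02 (3 and 1 with DESeq2), and 0 were higher and 5 lower with KB05, where 1 was higher at an unadjusted edgeR p under 0.05 and 0 with DESeq2. EP300, an acetyltransferase that works with KLF activators, was at 68.1 CPM with DMSO, 123 CPM with KB02 and 45.8 CPM with KB05, a difference of -1.42 ± 0.07 (log2) between the compounds (edgeR adjusted p = 8.46e-16). SIN3A, the scaffold that KLF9, KLF10, KLF11 and KLF13 recruit, was at 45.7, 67.9 and 31.1 CPM, a difference of -1.12 ± 0.08 between the compounds. HDAC1, a deacetylase of the same complex, fell from 256 CPM to 146 CPM with KB02 and 148 CPM with KB05. EP300 and SIN3A thus moved in opposite directions from DMSO with the compounds, each change passing the test, and HDAC1 fell with both.

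Of 8 genes for enzymes that control KLF protein turnover, 6 were higher and 0 lower with KB02 (also 0 lower at an unadjusted edgeR p under 0.05 and with DESeq2), and 3 were higher and 2 lower with KB05. FBXW7, a ubiquitin ligase adaptor for KLF5, rose from 19.3 CPM to 28.5 and 32.3 CPM, and BTRC, an adaptor for KLF4, from 8.3 CPM to 12.7 and 11.9 CPM. The related ligases SMURF1 and SMURF2 differed between the compounds. SMURF2 rose from 16.3 to 24.4 CPM with KB02 and was at 13.7 CPM with KB05, and SMURF1 fell from 59.4 to 40.1 CPM with KB05 and was at 66.1 CPM with KB02. Both were lower with KB05 than with KB02, by log2 differences of -0.83 ± 0.11 and -0.72 ± 0.08.

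Of 22 upstream genes, 8 were higher and 6 lower with KB02, and 5 were higher and 9 lower with KB05. FOXO1, which with FOXO3 drives KLF2 in lymphocytes, rose from 4.4 CPM to 11.3 CPM with KB02 and 9.18 CPM with KB05, and FOXO3 from 20.6 CPM to 43.8 and 31.2 CPM. SRF, the factor that binds CArG boxes, was at 71.9 CPM with DMSO, 81.6 with KB02 and 121 with KB05, and was higher with KB05 than with KB02 by 0.57 ± 0.07 on the log2 scale (edgeR adjusted p = 9.51e-08). TGFB1, the ligand for which KLF10 is an early gene, fell from 63.7 CPM to 31.2 CPM with KB02 and 54.3 CPM with KB05. TGFB1 and its receptor gene TGFBR1 are also on the list of targets. MAPK7, the gene for ERK5, fell from 33.4 CPM to 28.3 CPM with KB02 and 23.5 CPM with KB05, passing the test with both. MEF2D rose from 48.3 CPM to 66.9 and 78.8 CPM, and MEF2A and MEF2C passed no test. The part of these genes in the rise of KLF2 was not tested.

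Of 22 reported targets of KLF proteins, 16 were tested. With KB02, 2 were higher and 4 lower than with DMSO, where 22.8% of all genes tested were higher and 23.3% lower. With KB05, 2 were higher and 4 lower, where 18.7% of all genes tested were higher and 21.1% lower. The counts of lower targets are near these shares, and those of higher targets are not above them. CDKN1A, the cell cycle inhibitor that KLF4 and KLF6 activate, rose from 150 CPM to 234 CPM with KB02 and 273 CPM with KB05 (edgeR adjusted p = 3.83e-09 and 2.85e-11). SMAD7, which KLF10 represses, rose from 17.2 CPM to 22.6 and 32.6 CPM. TGFBR1, a KLF6 target, fell from 8.97 CPM to 4.51 CPM with KB02 and 6.5 CPM with KB05. CDH1, which KLF4 activates in epithelium, was at 305 CPM with DMSO, 201 CPM with KB02 and 291 CPM with KB05, and was higher with KB05 than with KB02 by 0.53 ± 0.07 on the log2 scale. Between the compounds, 7 of the 16 targets were higher with KB05 and 0 lower (also 0 at an unadjusted edgeR p under 0.05 and with DESeq2), beside 21.8% higher and 18.2% lower among all genes tested. Of these, CDKN1A and SMAD7 were also called higher with KB05 than with DMSO. TGFB1 and TGFBR1 were lower with KB05 than with DMSO, and CDH1, NOS3 and MAOA were not called there. The list holds targets that KLF proteins activate and targets that they repress. Levels of targets do not show whether KLF proteins changed, which was not measured here.

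For the 4 members past 2-fold, the genes with the nearest course over the 9 libraries were found by the root mean square difference in log2 CPM after subtracting the DMSO mean, among 12182 protein-coding genes. For KLF2 these were CDC42EP2 (0.191), an effector of CDC42, and ZFP36 (0.208), which destabilises ATTTA-bearing messages. For KLF10 they were NFIL3 (0.149), a bZIP repressor, and the kinase gene SGK1 (0.172). For KLF4 H2AC6 was nearest (0.16), and for KLF6 the nearest were NKX2-8 (0.177) and VPS37D (0.187). NFIL3 changed by 1.74 with KB02 and 1.68 with KB05 on the log2 scale, beside log2 fold changes of 1.60 and 1.72 for KLF10. H2AC6 changed by 0.04 and 1.68, beside -0.15 and 1.56 for KLF4. It is one of a family of similar histone genes, so its reads may be shared.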

How the data were processed

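Gene levels were measured by RNA sequencing in 9 libraries, 3 each of 22Rv1 cells given DMSO, KB02 or KB05. The 15 samples taken at 8 h were not analysed here. The deposited values are estimated counts per gene, not scaled to depth, in 1 column per library. Per the submitters' processing notes, Salmon 1.3.0 and DESeq2 1.30.1 were used with hg38 and GRCh38.p13. For the annotation release and the strand setting, the sources used here give nothing. Of the values in a library, 20.3% to 24.3% were not whole, and all were rounded.

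The test was edgeR's quasi-likelihood test (robust; edgeR 4.0.16, R 4.3.3) with all 3 groups in 1 model, after TMM scaling and filterByExpr at a minimum count of 10. Benjamini-Hochberg adjustment ran over all 18379 genes, with a threshold of 0.05. Standard errors are the log2 fold change over the root of F. The code was tested on simulated data. Of 60232 identifiers, 60064 were found in the name table. The labels call the replicates biological without naming separate cultures, so p-values set each difference against the spread between these libraries. Pairs of libraries in a group differed by 4.28 to 9.75 in chi-square over its degrees of freedom, and none were merged. Intervals cover the spread between libraries.

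All 10 members are named in every comparison. From each gene list, the 2 called genes with the largest change per comparison are named (mean log2 CPM 1 or more), and for members past 2-fold the 2 nearest protein-coding genes. 1 gene that this rule names is not reported here. SP1, KLF16, PTPRC, COL1A1, SMURF1 with KB02, SMURF2 with KB05 and the genes below the filter were added after their values were seen. KRT8, KRT18, MAPK7, MEF2A, MEF2C, MEF2D, NOS3 and MAOA were added in the same way. So was the MEF2 motif. Members, lists and tests were chosen with earlier results of these data known. Alternatives were other scalings, DESeq2 1.42.0, other filters, a replicate block, fits of 2 groups and leaving out each library.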

Additional observations from a re-analysis of the deposited data

How the results depend on the processing

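Of 510 recomputed log2 fold changes of members, 490 kept their direction and their side of the threshold. Every rise against DMSO called above (KLF2, KLF5 and KLF10 with either compound, KLF3, KLF4, KLF6 and KLF11 with KB05) stayed past it in all 17 alternatives, and so did the differences of KLF3, KLF4, KLF6 and KLF11 between the compounds. The number of members lower than DMSO became 1 with KB02 with no filter on low counts (KLF6), without DMSO replicate 3 (KLF4) and without KB02 replicate 3 (KLF6), and 1 with KB05 without KB05 replicate 1 (KLF9), against 0 otherwise, so it ranged from 0 to 1 when libraries were left out. Signs changed for values that passed no test. KLF3 with KB02 was 0.0284 with upper-quartile factors and 0.107 with library size only, and ranged from -0.126 to 0.061 when libraries were left out, above 0 without DMSO replicate 1 or 2 or KB02 replicate 1 or 3. KLF7 with KB02 was 0.0267 with library size only. Between the compounds, KLF5 was -0.0415 with library size only and ranged from -0.032 to 0.164 when libraries were left out, below 0 without KB02 replicate 3. KLF9 ranged from -0.334 to 0.138, above 0 without KB05 replicate 2 or 3. The cause was not tested.

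Scaling by library size only moved the median of all genes by 0.13 for KB02 against DMSO and by -0.11 between the compounds, and the share of higher calls became 63.8% (49.5% with TMM) and 37.4% (54.4%). With the replicate block, 8600, 7476 and 7518 genes were called in the 3 comparisons, against 8470, 7321 and 7346 without it, and no member's call changed. Deviations of same-numbered libraries correlated between -0.04 and 0.08, and those of differently numbered libraries between -0.07 and 0.04. Correlations this weak, from groups of 3 libraries, cannot decide whether same-numbered libraries share a culture or a batch. DESeq2 called 7613, 6433 and 6448 genes. Of the 10 members, KLF13 had the fewest counts, 55 to 95 a library.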
